A study of Homo sapiens with 4 samples.

Results

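The nuclear RNA polymerases were followed here as a group of 35 genes in C4-2 cells in which RRM2 was knocked down. C4-2 is a human prostate cancer line derived from LNCaP cells, and RRM2 encodes the small subunit of ribonucleotide reductase, the enzyme that makes deoxyribonucleotides. Members were the rows of the gene table whose symbol starts with POLR1, POLR2 or POLR3 followed by a letter, with CD3EAP, TWISTNB, ZNRD1, UBTF and RRN3 added. The table has 27275 rows, of which 36 matched, POLR2J4 was left out as a transcribed pseudogene, and all 35 others had at least 10 counts in 2 or more libraries. All 35 also passed the expression filter of the test. Cells received either a scrambled siRNA, the control, or a pool of siRNAs against RRM2, with 2 RNA-seq libraries in each group, and every library came from the same parental line with no other treatment named in the labels. The time after transfection was not found in those labels. Since no source states that the paired libraries are separate cultures, their spread may be technical, and p-values speak of that spread alone.

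RNA polymerase I (Pol I) transcribes the large ribosomal RNA precursor in the nucleolus, RNA polymerase II (Pol II) transcribes messenger RNA, and RNA polymerase III (Pol III) transcribes transfer RNA, 5S ribosomal RNA and other short RNAs. The 3 enzymes share a common core. Each has its own largest and second largest subunit, which form the catalytic centre, and its own stalk, while a set of small subunits is built into all 3 enzymes and POLR1C and POLR1D are shared by Pol I and Pol III. Pol I and Pol III output is known to follow cell growth. By these assignments, 6 members belonged to Pol I alone, 10 to Pol II, 10 to Pol III and 7 to more than 1 enzyme, and UBTF and RRN3 are initiation factors of Pol I.

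The libraries held between 27844107 and 29941674 estimated counts, and 15840 genes were tested with edgeR's quasi-likelihood test, with p-values adjusted over all of them. The RRM2 count, normalized for library size by TMM as are all counts below, was 1333 and 1239 in the scrambled siRNA libraries, called controls below, and 118 and 125 after knockdown. Its log2 fold change, knockdown over control here and below, was -3.41 (SE, standard error, 0.08). All 7 prostate markers listed for this line were detected. Of the defining markers of other cell types COL1A2, DCN, PTPRC, CD3E and CDH5 had 0 to 3 counts in any library and LUM 4 to 9, while CD68 had 1442 to 1844 and VWF 192 to 235 normalized counts. Of the markers that could be tested COL1A1 (log2 fold change 0.18), CD68 (0.33) and PECAM1 (1.42) were higher after knockdown, and COL3A1 (-0.24) and VWF (-0.23) were not called. PECAM1 was low, at 6.05 and 6.25 normalized counts in the controls and 14.1 and 19.3 after knockdown, and DESeq2 called 0 endothelial markers higher. The part of these markers in the results was not tested. Summed over the tested markers, the normalized count lay between 962 and 1141 for fibroblasts (COL1A1 and COL3A1). It lay between 211 and 241 for endothelium (PECAM1 and VWF). The immune value, 1442 to 1844, was that of CD68 alone. RRM2 siRNA library 2 stood apart in ribosomal RNA, which took 6.13% of its counts and 2.14% to 2.45% in the other libraries. In bulk RNA, fewer cells of a kind and less RNA per cell cannot be told apart.

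More polymerase genes were lower than higher with RRM2 siRNA, and the changes were small. Of the 35 members 16 fell, 6 rose and 13 did not pass an adjusted p under 0.05. Among all tested genes 25.0% were called lower and 25.4% were called higher, and among the members 45.7% and 17.1%. These shares are a description, and their difference was not tested. The median log2 fold change was -0.10 over the members and -0.00 over all tested genes, whose middle 50% of genes lay between -0.22 and 0.22. In 22 members both RRM2 siRNA libraries lay below both controls, against 37.3% of all genes, and in 9 both lay above, against 37.7%. With a fold change over 1.5 as well, the threshold of the study, 3 members were lower (CD3EAP and POLR3B among them) and 0 were higher, beside 5.25% and 5.90% of all genes. POLR3B lies just past this threshold, and without scrambled siRNA library 2 POLR3GL also passed it. DESeq2 called 12 members lower and 5 higher, limma voom 16 and 6, and at an unadjusted p under 0.05 the edgeR counts were 18 and 7.

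**Figure D1:**
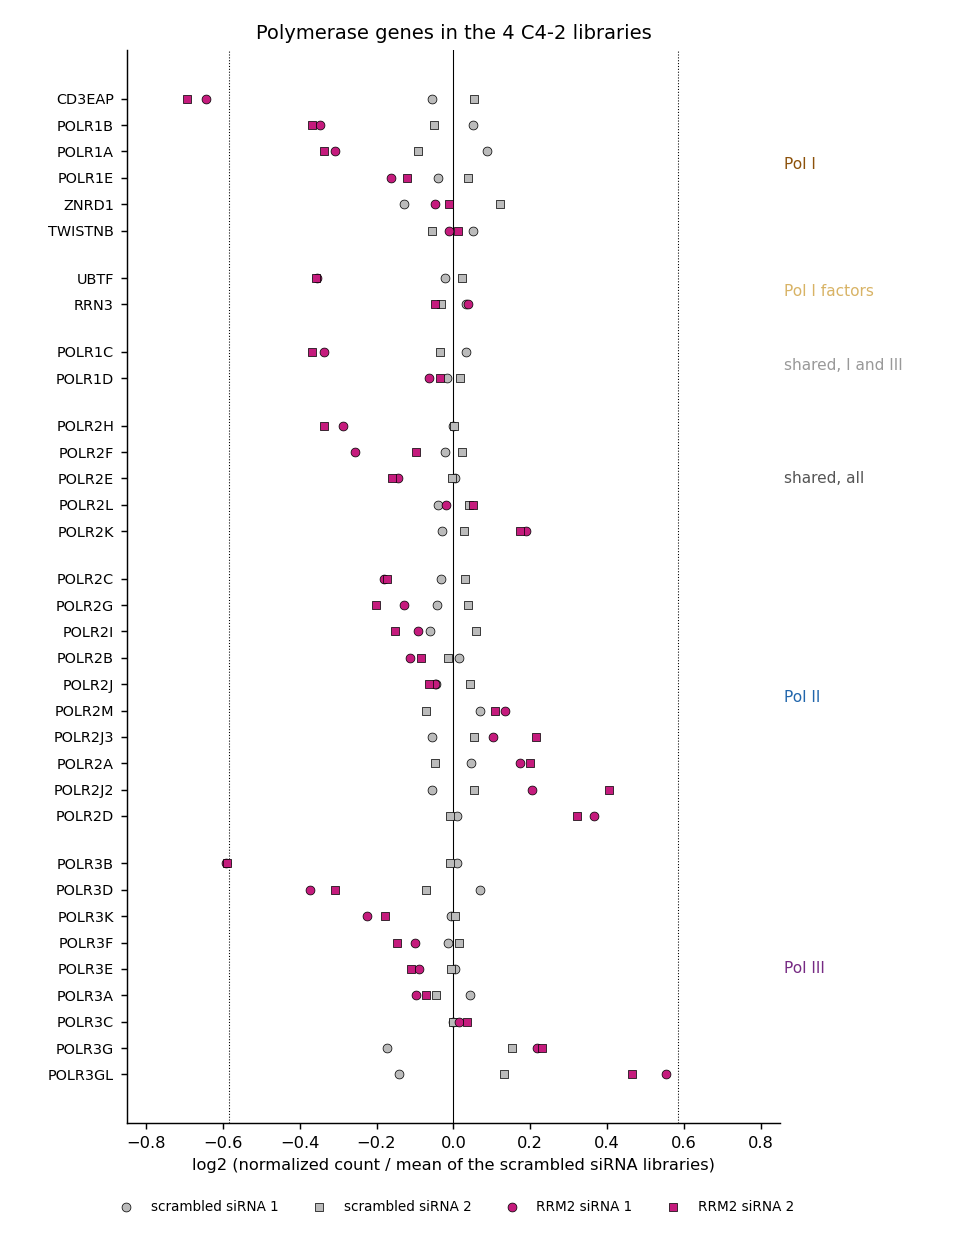
Polymerase genes (34 of the 35) in each library, as the log2 ratio of the normalized count to the mean of the scrambled siRNA libraries; grey points are scrambled siRNA, purple points RRM2 siRNA, circles library 1 and squares library 2. Dotted lines mark a 1.5-fold change. CD3EAP and POLR3B lie at or past the left line, and POLR3GL lies farthest to the right.

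Class counts here and below stand beside the 25.0% lower and 25.4% higher among all tested genes. In Pol I no subunit rose. Of its 6 subunits 4 fell, 0 rose and 2 did not pass, with a median log2 fold change of -0.23 and a range from -0.67 to 0.00. DESeq2, limma voom and an unadjusted p under 0.05 also gave 0 higher subunits. CD3EAP (chr19:45406209-45410766, positions here and below from GENCODE v29 on GRCh38) forms with POLR1E a dimer on the enzyme that acts in initiation and elongation, and had 150 and 162 normalized counts in the controls and 99.8 and 96.5 after knockdown. Its log2 fold change was -0.67 (SE 0.16, adjusted p = 0.00257), the largest fall of the 35 members. Its counts are also the lowest of the 35, and 45.1% of its exon bases overlap ERCC1 or PPP1R13L. No source used here says whether reads were counted by strand, so reads from these overlapping genes cannot be told apart; ERCC1 itself was not called, with a log2 fold change of 0.03, and PPP1R13L rose by 0.42. The partner subunit POLR1E fell by 0.14 (SE 0.05, adjusted p = 0.0358). This call was lost without scrambled siRNA library 2 (log2 fold change -0.10), without RRM2 siRNA library 1 (-0.12), without RRM2 siRNA library 2 (-0.16), with library size alone and with DESeq2.

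Both subunits of the Pol I catalytic centre fell by about the same amount. POLR1A (chr2:86020216-86106155), the largest subunit, had 1356 and 1198 normalized counts in the controls and 1031 and 1012 after knockdown, a log2 change of -0.32 (SE 0.06, adjusted p = 0.000278). POLR1B (chr2:112541915-112577150), the second largest, had 1279 and 1192 against 971 and 957, a log2 change of -0.36 (SE 0.05, adjusted p = 3.91e-05). For both genes the controls and the knockdown libraries did not overlap. ZNRD1, the zinc-ribbon subunit that takes part in RNA cleavage, was not called at -0.03 (95% interval -0.21 to 0.15), nor was TWISTNB, the stalk subunit, at 0.00 (-0.12 to 0.12). The intervals leave room for changes of up to 0.21 and 0.12 in these genes. They overlapped between groups, with ZNRD1 at 364 and 433 in the controls and 385 and 395 with RRM2 siRNA.

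The initiation factors of Pol I were unequal. UBTF (chr17:44205033-44221626), the HMG-box protein that binds and opens the ribosomal RNA genes, had 2029 and 2093 normalized counts in the controls and 1612 and 1610 after knockdown, a log2 change of -0.36 (SE 0.05, adjusted p = 1.34e-05). RRN3, which makes Pol I competent for initiation through the stalk, had 1883 and 1801 against 1892 and 1782, a log2 change of -0.00 (95% interval -0.11 to 0.10). The groups did not overlap for UBTF and overlapped for RRN3. RRN3 is uncertain, because 26.9% of the 50-base words of its transcripts also occur in other genes, RRN3P1 and RRN3P2 among them. The ratio of UBTF to RRN3 counts was 1.08 and 1.16 in the controls and 0.852 and 0.903 with RRM2 siRNA.

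Pol II changed in both directions. Of its 10 members 3 fell, 4 rose and 3 did not pass, with a median log2 fold change of 0.03 and a range from -0.18 to 0.34. POLR2A (chr17:7484366-7514616), the largest subunit, whose C-terminal repeats are phosphorylated during the transcription cycle, had 2625 and 2457 normalized counts in the controls and 2865 and 2916 after knockdown, a log2 change of 0.19 (SE 0.05, adjusted p = 0.00378). POLR2D (chr2:127843551-127858157), which forms the stalk with POLR2G, had 884 and 872 against 1131 and 1098, the largest rise in this class at 0.34 (SE 0.05, adjusted p = 4.36e-05). Both genes were higher in each knockdown library than in either control. POLR2G was lower, at 996 and 1053 against 937 and 891, a log2 change of -0.16 (SE 0.05, adjusted p = 0.0187). The stalk partners thus moved apart, with a ratio of POLR2D to POLR2G counts of 0.887 and 0.829 in the controls and 1.21 and 1.23 with RRM2 siRNA. The call of POLR2G was lost without scrambled siRNA library 2 (-0.13, adjusted p = 0.0864) and without RRM2 siRNA library 2 (-0.13, adjusted p = 0.164), and with DESeq2 (adjusted p = 0.155).

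POLR2C, the platform subunit that pairs with POLR2J, fell by 0.18 (SE 0.05, adjusted p = 0.00505), and POLR2B, the second largest subunit, fell by 0.10 (SE 0.04, adjusted p = 0.0453). Some 12.4% of the exon bases of POLR2B overlap IGFBP7 or NOA1, so that its count may hold their reads. Both of these genes were called lower, at -0.79 and -0.20, and their part in the fall of POLR2B was not tested. The call of POLR2B was lost without scrambled siRNA library 1 (-0.09), without RRM2 siRNA library 1 (-0.09), without RRM2 siRNA library 2 (-0.11), with library size alone (adjusted p = 0.128) and with DESeq2 (adjusted p = 0.108). POLR2I, the zinc-ribbon subunit, had a log2 fold change of -0.12 (95% interval -0.24 to -0.00, adjusted p = 0.085), and POLR2J one of -0.06 (-0.15 to 0.04). Without scrambled siRNA library 1, POLR2I passed the test at -0.18 (adjusted p = 0.0138). POLR2M, which is known to hold Pol II back unless Mediator is present, had 0.12 (0.01 to 0.23, adjusted p = 0.0717), and passed at 0.19 (adjusted p = 0.00935) without scrambled siRNA library 1. Some 33% of the exon bases of POLR2I overlap OVOL3 or TBCB, and 21.1% of those of POLR2M overlap GCOM1. For POLR2M, 31.6% of its 50-base words also occur in GCOM1 or GCOM2. GCOM1 itself was not called, with a log2 fold change of 0.32, and the part of these overlaps was not tested. POLR2J2 and POLR2J3 are copies of POLR2J on chromosome 7, and 100% and 89.8% of their 50-base words occur in other genes, POLR2J4 among them. For POLR2J itself this share was 33.5%, so that its count is uncertain as well. POLR2J2 had 485 and 523 normalized counts against 581 and 667, a log2 change of 0.31 (SE 0.08, adjusted p = 0.0033). POLR2J3 had 1436 and 1550 against 1604 and 1733, at 0.16 (SE 0.05, adjusted p = 0.0226). Both copies rank as uncertain, and without RRM2 siRNA library 2 neither passed, at 0.20 and 0.10. POLR2J3 also lost its call without scrambled siRNA library 1 (0.10) and with DESeq2 (adjusted p = 0.0969). Without that second knockdown library 1 Pol II member fell and 2 rose, and these risen genes were POLR2A and POLR2D.

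Pol III held the widest spread, with 4 of 10 subunits lower, 1 higher and 5 not passing, a median log2 fold change of -0.11 and a range from -0.59 to 0.51. POLR3B (chr12:106357658-106510198), the second largest subunit, had 616 and 608 normalized counts in the controls and 406 and 407 after knockdown, a log2 change of -0.59 (SE 0.07, adjusted p = 3.01e-06). The knockdown libraries nearly coincided, about 1.5-fold below the controls. POLR3D, which forms a dimer with POLR3E, fell by 0.34 (SE 0.06, adjusted p = 0.000141). POLR3K, the zinc-ribbon subunit that acts in termination and RNA cleavage, fell by 0.20 (SE 0.05, adjusted p = 0.0024). POLR3A, the largest subunit, had 2142 and 2016 against 1943 and 1980, and did not pass at -0.08 (95% interval -0.19 to 0.02, adjusted p = 0.158). Without scrambled siRNA library 2 it passed, at -0.13 (adjusted p = 0.0374).

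The remaining Pol III subunits centre on the trimer that acts in initiation. POLR3C and POLR3F, both part of it, were not called at 0.02 (95% interval -0.13 to 0.18) and -0.12 (-0.28 to 0.03), and POLR3E was not called at -0.10 (-0.20 to -0.00). The third place of the trimer is taken by either POLR3G, which is known to be high in stem cells and many tumour cells, or POLR3GL, the form of most differentiated cells. POLR3GL (chr1:145964702-145978848) had 359 and 434 normalized counts in the controls and 581 and 547 after knockdown, a log2 change of 0.51 (SE 0.08, adjusted p = 0.000123), the largest rise of the 35 members. It was the sole Pol III subunit called higher. POLR3G had 174 and 218 against 228 and 230, at 0.22 (95% interval -0.04 to 0.49, adjusted p = 0.15). POLR3G passed at 0.39 (adjusted p = 0.0452) without scrambled siRNA library 2. The ratio of POLR3GL to POLR3G was 2.06 and 2 in the controls and 2.55 and 2.38 with RRM2 siRNA, and the log2 fold changes of the 2 genes differed by 0.29 (combined SE 0.15). Some 21.5% of the 50-base words of POLR3GL also occur in AC243547.3, so that its count may hold reads of that gene.

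Of the 7 shared subunits 4 fell, 1 rose and 2 did not pass, with a median log2 fold change of -0.15. POLR1C (chr6:43509702-43562419), the larger of the platform subunits of Pol I and Pol III, had 975 and 931 normalized counts in the controls and 755 and 739 after knockdown, a log2 change of -0.35 (SE 0.05, adjusted p = 7.12e-05). Its platform partner POLR1D was not called, at 6775 and 6944 against 6569 and 6692, a log2 change of -0.05 (95% interval -0.13 to 0.03). Of the subunits built into all 3 enzymes POLR2H fell most, from 2589 and 2597 to 2126 and 2052, a log2 change of -0.31 (SE 0.05, adjusted p = 4.02e-05). POLR2K was the shared subunit that rose, from 1811 and 1884 to 2106 and 2083, at 0.18 (SE 0.05, adjusted p = 0.00418). POLR2F fell from 1464 and 1509 to 1244 and 1389, at -0.18 (SE 0.06, adjusted p = 0.0153). That call was lost without RRM2 siRNA library 1, where the value was -0.10 (adjusted p = 0.256), and with DESeq2 (adjusted p = 0.0824). POLR2E fell by 0.15 (SE 0.04, adjusted p = 0.00275), and POLR2L was not called at 0.02 (95% interval -0.08 to 0.12). Some 22.5% of the exon bases of POLR2L overlap CD151, and 11.1% of those of POLR1C overlap LRRC73, XPO5 or YIPF3. LRRC73, XPO5 and YIPF3 were not called, at -0.05, -0.07 and -0.02. The part of these overlaps was not tested. Counted by symbol alone, with the shared POLR2 genes put under Pol II, that class had 6 of 15 members lower and a median of -0.06, so its median of 0.03 rests on where the shared genes are placed.

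**Figure D2:**
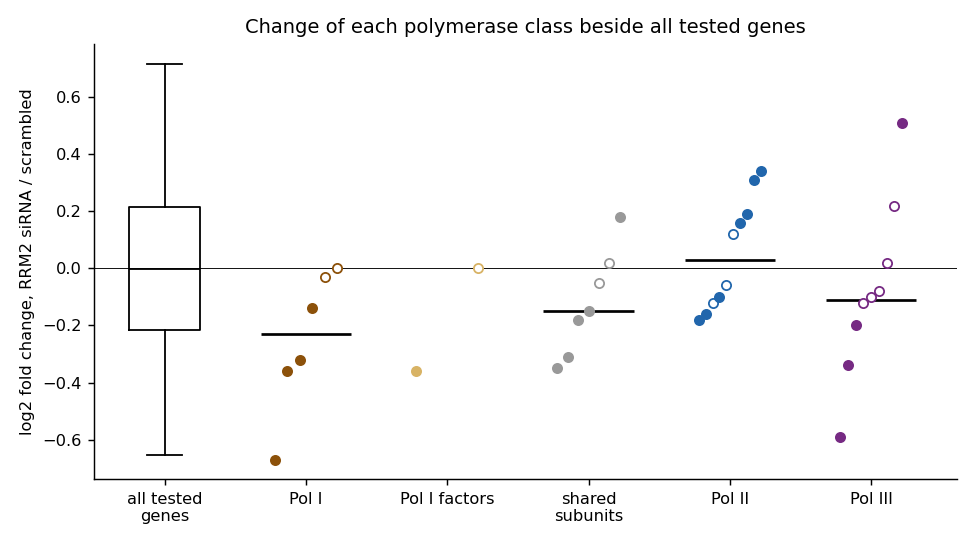
Log2 fold change of 34 of the 35 polymerase genes by class; filled points passed an adjusted p under 0.05, open points did not, and thick lines are the medians over all members of a class. The box gives the middle 50% of the 15840 tested genes and its whiskers the 5th and 95th percentile. Medians lie at -0.23 for Pol I, -0.15 for the shared subunits, 0.03 for Pol II and -0.11 for Pol III.

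The 3 enzymes can be set side by side at places where each has its own counterpart. A ratio between genes depends on their transcript lengths, so that only its change between libraries is read. At the largest subunit, the ratio of POLR1A to POLR2A counts fell from 0.517 and 0.488 in the controls to 0.36 and 0.347, a difference in log2 fold change of -0.51 (combined SE 0.07). The ratio of POLR3A to POLR2A went from 0.816 and 0.82 to 0.678 and 0.679, a difference of -0.27 (combined SE 0.07). At the second largest subunit, POLR1B to POLR2B went from 0.241 and 0.23 to 0.2 and 0.193, and POLR3B to POLR2B from 0.116 and 0.117 to 0.0837 and 0.0823. In each of these 4 pairs the knockdown libraries lay below both controls, that is, the catalytic subunits of Pol I and Pol III decreased relative to those of Pol II. As single genes 37.3% of all tested genes lay below both controls, and no such share was computed for ratios. The pairs share the denominators POLR2A, which itself rose by 0.19, and POLR2B. POLR3A was itself not called, at -0.08. Between Pol I and Pol III the order was not the same at both places: the difference of POLR1A from POLR3A was -0.24 (combined SE 0.08) and that of POLR1B from POLR3B was 0.23 (combined SE 0.08).

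Other places repeated this pattern only in part. At the stalk, TWISTNB to POLR2G went from 0.934 and 0.821 to 0.952 and 1.02, so the Pol I stalk gene did not decrease against its Pol II counterpart. At the zinc ribbon the ratios of ZNRD1 to POLR2I and of POLR3K to POLR2I overlapped between groups, with differences of 0.09 (combined SE 0.10) and -0.08 (combined SE 0.07). At the platform, POLR1C to POLR2C was lower in both knockdown libraries, at 0.479 and 0.437 against 0.411 and 0.4. The difference was -0.17 (combined SE 0.07). POLR1D to POLR2J overlapped between groups and differed by 0.01 (combined SE 0.06). With 2 libraries against 2, an exact permutation test of a ratio cannot give a two-sided p below 0.333, so these ratios are given with their standard errors and no p.

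**Figure D3:**
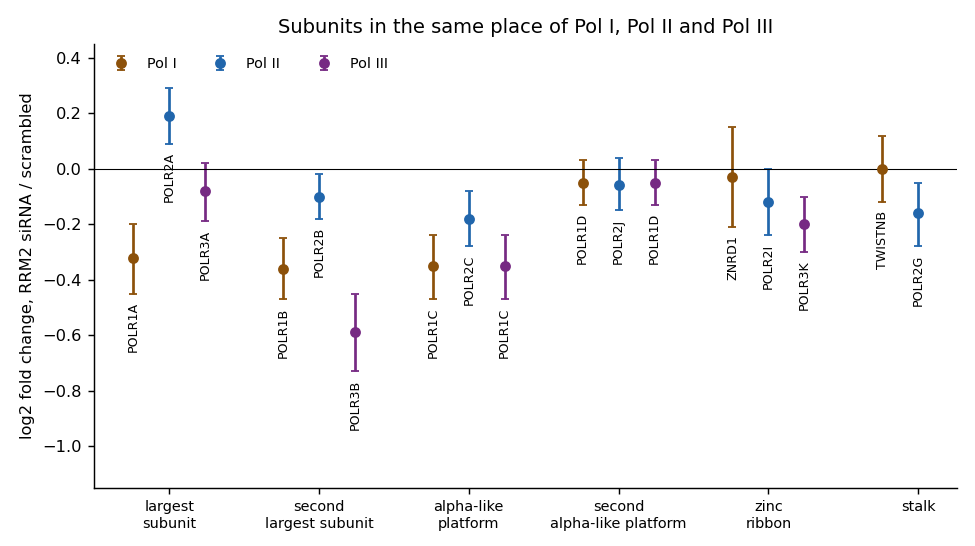
Log2 fold change with its 95% interval for the genes at matching places of Pol I, Pol II and Pol III. POLR1C and POLR1D appear under both Pol I and Pol III because both enzymes use them. At the largest and second largest subunit the Pol II gene is the highest of the 3. At the stalk POLR2G (-0.16) and TWISTNB (0.00) are shown.

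**Figure D4:**
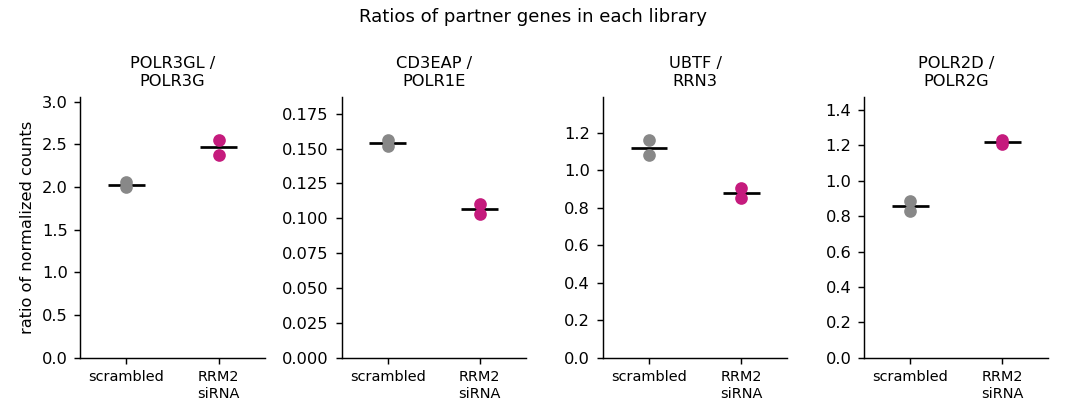
Ratio of normalized counts between partner genes in each library, with the group mean as a line and axes that start at 0. CD3EAP to POLR1E and UBTF to RRN3 were lower in both RRM2 siRNA libraries than in both controls, and POLR3GL to POLR3G and POLR2D to POLR2G were higher.

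An siRNA can pair with other transcripts through a short seed, so the members were searched for the words AAGTCCA and AGTCCAA, which occur in the RRM2 mRNA and had stood out in an earlier examination of these same data. The sources used here do not give the siRNA sequences, so it is not known whether any guide carries this seed. In GENCODE v29 transcripts 10 members hold such a word (POLR1A, POLR1C, POLR2A, POLR2D, POLR2H, POLR3A, POLR3B, POLR3F and UBTF among them), of which 6 fell and 2 rose, with a median log2 fold change of -0.32. Of the 25 other members 10 fell and 4 rose, with a median of -0.06. Over all tested genes, 30.6% of the 4917 with a word were lower and 23.1% higher (median -0.04), against 23.3% and 29.3% of those without (median 0.03). The word AAGTCCA lies in the 3′ UTR of 4 members, POLR1A, POLR1C and POLR2H among them, and all 4 fell. Across all tested genes with AAGTCCA in the 3′ UTR 34% of 1628 were lower, with a median of -0.06. The word AGTCCAA lies in the 3′ UTR of 2 members, of which 1 fell and POLR3A was not called, beside 31.8% lower of 1255 tested genes. The sites of POLR1A, POLR1C and POLR2H are shown because these genes are among the larger falls of the group, and that of POLR3A because it was not called. They are given 5′ to 3′ on the mRNA in GRCh38, after the RRM2 site, with the word in capitals:
RRM2, chr2:10129334-10129360, plus strand: gagtgatgtcAAGTCCAacagagaatt
POLR1A, chr2:86023096-86023122, minus strand: cttccgtccaAAGTCCActtagaggct
POLR1C, chr6:43561895-43561921, plus strand: ttctttattcAAGTCCAtgtttcgtgg
POLR2H, chr3:184368551-184368577, plus strand: tttttgtaaaAAGTCCAtttactgtaa
POLR3A, chr10:77977463-77977489, minus strand: cttgtcacatAGTCCAAagaaagaggg
The RRM2 site lies outside its 3′ UTR. CD3EAP and POLR1B, which fell, hold neither word, and the rises of POLR2A and POLR2D occurred in genes that hold them outside the 3′ UTR. A word was held by 28.6% of members and 35.8% of the tested genes that were searched. AAGTCCA lay in the 3′ UTR of 11.4% and 11.8%. Because the words were picked from these same data, the shares of lower genes given here are no independent support. Transcript length was not taken into account. The part of these words in the changes of the members was not tested.

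Promoter sequences from RefSeq (GRCh38.p14) were matched for 26 of the 35 members, 34 promoters in all. The word CACGTG, an E-box that MYC and related factors bind, was searched on both strands from 250 bases before to 50 after the start. It was present in 4 members, CD3EAP, POLR3A, POLR3C and POLR3E, and in 7.26% of 35116 promoters. Of the 4 members CD3EAP fell and the others were not called. MYC itself had 7955 and 7705 normalized counts in the controls and 2885 and 2910 after knockdown, a log2 change of -1.43 (SE 0.04). The part of MYC in the changes of the members was not tested. CCGGAAG, a word of ETS factors searched in the same way, was present in 10 members and 10.3% of all promoters. For both words the member figure counts genes, whose 34 promoters outnumber the 26 members, and the share counts single promoters. The figures are thus not like for like. The 250 bases before the start are shown for the member that fell most, for the largest Pol III subunit, which carries the same E-box and was not called, and for the member that rose most, with any CACGTG in capitals:
CD3EAP, chr19:45406394-45406643, plus strand: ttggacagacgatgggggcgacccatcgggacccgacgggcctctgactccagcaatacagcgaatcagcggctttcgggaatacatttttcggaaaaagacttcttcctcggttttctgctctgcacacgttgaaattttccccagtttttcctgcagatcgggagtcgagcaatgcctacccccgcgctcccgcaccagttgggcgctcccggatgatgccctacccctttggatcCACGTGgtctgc
POLR3A, chr10:78029516-78029765, minus strand: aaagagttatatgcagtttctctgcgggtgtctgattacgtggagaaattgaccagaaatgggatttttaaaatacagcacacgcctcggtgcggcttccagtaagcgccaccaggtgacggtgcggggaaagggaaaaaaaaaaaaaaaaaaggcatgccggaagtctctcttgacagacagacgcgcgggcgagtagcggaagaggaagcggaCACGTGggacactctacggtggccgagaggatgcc
POLR3GL, chr1:145964440-145964689, plus strand: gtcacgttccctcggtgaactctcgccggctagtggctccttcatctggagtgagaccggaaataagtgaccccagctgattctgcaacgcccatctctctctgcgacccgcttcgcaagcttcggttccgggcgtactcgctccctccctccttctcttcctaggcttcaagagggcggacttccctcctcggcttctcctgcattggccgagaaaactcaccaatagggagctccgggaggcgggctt
In CD3EAP the E-box starts 12 bases before the start site and in POLR3A 35 bases before it, and POLR3GL has none in this window.

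The factors listed around the enzymes, not all of them initiation factors, were counted by polymerase. Among all tested genes 25.0% were lower and 25.4% higher. Of 6 further Pol I factors (TBP, TTF1 and the 4 listed subunits of selectivity factor SL1) 0 fell and 0 rose, also by DESeq2, by limma voom and before adjustment of p, and with a median log2 fold change of -0.05. Of 19 Pol III factors, CRCP among them, 10 fell (SSB and MAF1 included) and 0 rose, with a median of -0.15. DESeq2 (7 lower), limma voom (10 lower) and an unadjusted p under 0.05 (11 lower) all gave 0 higher. SNAPC3, a subunit of the complex that recruits polymerases to small nuclear RNA genes, had 1826 and 1859 normalized counts in the controls and 941 and 936 after knockdown, a log2 change of -0.97 (SE 0.05, adjusted p = 7.74e-10). Its 3′ UTR holds both 7-base words, whose part in this fall was not tested. GTF3C1, the largest subunit of TFIIIC, which binds the internal promoters of transfer RNA genes, fell by 0.56 (SE 0.04, adjusted p = 5.05e-08). It holds AAGTCCA outside its 3′ UTR, and the part of this word was not tested either. MAF1, the repressor of Pol III, named here after its value was seen, was lower as well, at -0.15 (SE 0.04, adjusted p = 0.0123), a call lost without RRM2 siRNA library 1 (-0.15, adjusted p = 0.0711). Of the 7 Pol III factors with a word 5 fell, with a median of -0.22, and of the 12 without 5 fell, with a median of -0.05.

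Pol II factors were counted beside the 25.0% lower and 25.4% higher of all tested genes. Of 17 general factors 6 fell and 3 rose, with a median log2 fold change of -0.07. GTF2A2, the small subunit of TFIIA, rose from 1394 and 1384 normalized counts to 2134 and 1874, at 0.53 (SE 0.06, adjusted p = 2.57e-06). GTF2H2, a TFIIH subunit, was lower at -0.52 (SE 0.17, adjusted p = 0.0166), but its controls differed, at 253 and 408, and without scrambled siRNA library 2 the value was -0.14 (adjusted p = 0.474). DESeq2 did not call it either (adjusted p = 0.274). Of 16 pausing and elongation genes 5 fell and 4 rose, with a median of 0.01. TCEA1, which restarts arrested Pol II, rose by 0.38 (SE 0.05, adjusted p = 3.85e-05) and NELFCD, a subunit of the pausing factor NELF, fell by 0.26 (SE 0.04, adjusted p = 9.92e-05). Of 10 genes that assemble or import polymerases 3 fell and 0 rose, with a median of -0.09, and 0 rose by DESeq2, limma voom or an unadjusted p under 0.05. RUVBL1, an ATPase of the R2TP assembly complex, fell from 5157 and 5035 to 3014 and 3146, at -0.73 (SE 0.04, adjusted p = 3.8e-09). RPAP2, which takes part in Pol II import, fell by 0.24 (SE 0.06, adjusted p = 0.00509), a call lost with DESeq2 (adjusted p = 0.0845).

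The RNAs that Pol I and Pol III make were listed as 16 genes, of which 11 passed the filter. Of these 9 were called higher and 0 lower, beside 25.4% and 25.0% of all tested genes, with a median log2 fold change of 1.48. This rested on RRM2 siRNA library 2, the library with the high ribosomal RNA share. RNA5-8S5 had 442 and 810 normalized counts in the controls, 961 in RRM2 siRNA library 1 and 12133 in RRM2 siRNA library 2, and its log2 fold change was 3.39 with that library and 0.62 without it. RPPH1, the RNA of ribonuclease P, had 48.4 and 59.3 against 65.9 and 702, at 2.81 with the library and 0.29 without it (adjusted p = 0.426). Without RRM2 siRNA library 2 the counts became 4 higher and 2 lower (RN7SL1 and RN7SL2), with a median of 0.17. Also in the full data DESeq2 called 1 product higher and limma voom 6, with 0 lower by either tool and 0 at an unadjusted p under 0.05. RNA45S5, the ribosomal precursor made by Pol I, had 7414 and 6890 against 8391 and 18952, at 0.93 with the library and 0.23 without it. BCYRN1, a Pol III product of neurons and tumours, had 563 and 615 against 824 and 845 and rose both with and without that library, at 0.50 and 0.48. RNA45S5 and BCYRN1 were chosen after their values were seen. Many of these genes have copies in the genome, so their counts are uncertain, and steady RNA levels do not measure transcription. Ribosomal RNA took only 2.14% to 6.13% of counts, and the paper does not say whether it was removed or messenger RNA was selected. How far the counts of these products reflect carry-over from library preparation was not tested. Of the 35 members, the calls of POLR1E, POLR2B, POLR2G, POLR2J2 and POLR2J3 were lost without RRM2 siRNA library 2 and those of the other 17 called members were kept.

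**Figure D5:**
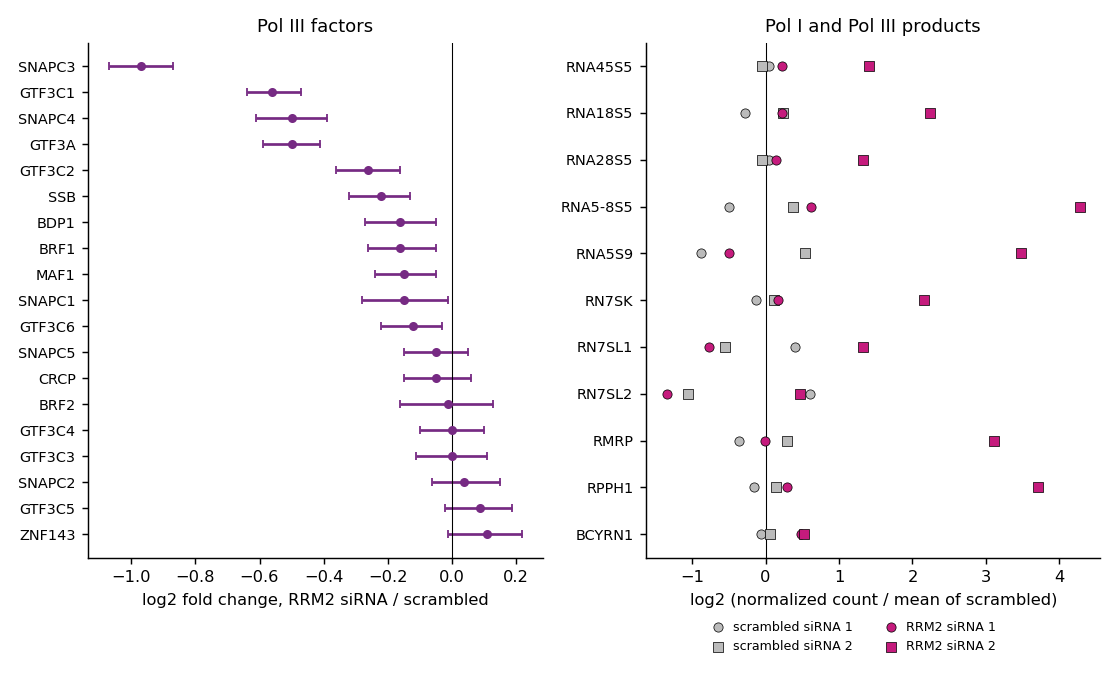
Left, log2 fold change with its 95% interval for 19 Pol III factors, of which SNAPC3 (-0.97) and GTF3C1 (-0.56) lie farthest to the left. Right, RNAs made by Pol I and Pol III in each library as the log2 ratio to the mean of the scrambled siRNA libraries, where RRM2 siRNA library 2 lies far to the right for most RNAs and RRM2 siRNA library 1 near the controls.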

How the data were processed

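Total RNA was extracted from C4-2 cells, and RNA-seq gave 2 libraries for each siRNA. The paper names no step that removed ribosomal RNA or selected messenger RNA. The authors deposited estimated counts per gene from Partek Flow, not normalized. Aligner, annotation, build, strand setting and Partek version: not given in the sources used here. Per library 71.0% to 71.7% of values were whole. Rounded counts were filtered (filterByExpr), normalized (TMM) and fitted in R 4.3.3 by the quasi-likelihood functions of edgeR 4.0.16, with Benjamini-Hochberg adjustment over 15840 genes. Dispersion was 0.0015 in common (biological coefficient of variation 3.87%). Chi-square per degree of freedom between libraries of a group was 3.66 for scrambled siRNA and 35.2 for RRM2 siRNA (1.98 without structural RNA genes), so no library was a copy of another. The fits were tested on simulated data. Coordinates are those of GENCODE v29 (GRCh38), whose positions overlap the table's for 99.8% of 24579 symbols. Symbols that a spreadsheet had turned into dates held 0.161% to 0.172% of the counts and were not named.

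The members and gene lists were chosen with earlier results of these data known, and no list is independent evidence. The result of 1 member is not reported here, though counts and medians include it. Every other member is named; values per library are given for the largest subunits, UBTF, RRN3, POLR3G, POLR3GL and the 3 called members with the largest change in each class, and other pathway genes are the 2 called genes per list with the largest change and a mean of at least 100 normalized counts. Other settings tried were limma voom (limma 3.58.1) and DESeq2 1.42.0 as tests, DESeq2 size factors and plain library size as scalings, no low-count filter or a minimum of 10 counts in each library, a replicate block, each library left out, no structural RNA genes, other fold thresholds, classes by symbol, no overlapping or copied members and, added after seeing the data, no members with the words AAGTCCA or AGTCCAA.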

Additional observations from a re-analysis of the deposited data

How the results depend on the processing

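Of the 22 called members 16 kept their call under each of 12 fits with another scaling, filter, tool or set of libraries, 6 lost it at least once (POLR1E, POLR2B, POLR2G, POLR2J2, POLR2J3 and POLR2F) and 0 changed direction. The replicate number as a block left every class count and median of the members as it was, and among the products it gave 1 lower gene. Same-numbered libraries did not deviate together (r = -0.04 across 10404 genes). With 2 libraries per group this value cannot exclude that the numbers pair the libraries. The median of all genes stayed between -0.01 and 0.00 under every scaling. DESeq2 called 1 Pol II member lower and 1 product higher. Without a filter the median log2 fold change was -0.24 for Pol I and -0.11 over all members.

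Classes by symbol alone gave Pol II 6 lower genes and a median of -0.06. Without members that overlap other genes or are copies, 18 members remained: 8 were lower, with a median of -0.09; Pol II had 1 lower, 2 higher and a median of 0.19, Pol III 2 lower and -0.09, the shared subunits 1 lower and -0.05, and 1 member was lower past 1.5-fold. Without the members that hold a 7-base word, 10 of 25 were lower, with a median of -0.06; Pol I had a median of -0.14, Pol II 2 higher and -0.08, Pol III 2 lower and -0.04, the shared subunits 2 lower and -0.05, the Pol I factors UBTF and RRN3 0 lower, and 1 member was lower past 1.5-fold. These settings leave fewer members to count. A fold change over 2 left 0 members lower, and a looser threshold below 1.5-fold gave 8 lower and 2 higher. Without structural RNA genes 1 product remained, which was higher.

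Leaving out each library in turn gave medians of -0.26 to -0.21 for Pol I, 0.01 to 0.03 for Pol II, -0.13 to -0.10 for Pol III, -0.16 to -0.10 for the shared subunits and -0.14 to -0.10 over all members. Counts lower were 1 to 3 in Pol II, and counts higher 2 to 4 in Pol II, 1 to 2 in Pol III, 0 to 1 past 1.5-fold and 2 to 4 among pausing and elongation genes. Among products 0 to 2 were lower and 4 to 11 higher. Uncalled members near 0 changed sign: TWISTNB ranged from -0.05 to 0.05 (-0.01 without a filter and -0.00 without structural RNA genes), ZNRD1 from -0.16 to 0.10, RRN3 from -0.05 to 0.04 (0.00 with library size alone) and POLR2L from -0.03 to 0.06. Where no library or member left out shows the cause, the cause was not tested. With 2 libraries per group and counts near 100 in CD3EAP, its standard error of 0.16 is about as large as the smallest called changes of other members.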

Other observations

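Rows next to the rule were not called. POLR2J4, the pseudogene left out, had 335 and 290 normalized counts in the controls and 302 and 318 after knockdown, a log2 change of -0.01 (SE 0.09). POLRMT, the single-subunit polymerase of mitochondria, had 1697 and 1646 against 1584 and 1639, at -0.05 (SE 0.05). The mitochondrial enzyme thus showed no call in either direction. ZNRD1ASP, an antisense gene that shares 24.5% of the exon bases of ZNRD1, had 206 and 173 against 138 and 161, at -0.34 (SE 0.14, adjusted p = 0.0628 by edgeR), and ZNRD1 itself was at -0.03. RRN3P3 had 48.4 and 35.4 against 49.9 and 39.6, at 0.10 (SE 0.25).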
